A study of Mus musculus with 32 samples.

Results

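The transforming growth factor beta (TGF-beta) pathway was followed in microglia of tau transgenic mice through 10 genes chosen by name, out of 18588 genes in the table. These were the ligand Tgfb1, its presenting protein Nrros (also called Lrrc33), the receptors Tgfbr1 and Tgfbr2, the signal transducers Smad2, Smad3 and Smad4, the inhibitory Smad7, and the nuclear corepressors Ski and Skil. All 10 had a row, found by Entrez number. On the deposited scale no member differed by more than 1.5 fold between genotypes at any age, and the largest fold at an FDR under 0.05 was that of Tgfbr2, which was 1.41 fold higher in rTg4510 at 8 months.

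Microglia RNA was sequenced from female rTg4510 mice and WT littermates at 2, 4, 6 and 8 months of age. rTg4510 mice carry a human P301L tau transgene behind a tetracycline-responsive element together with a transactivator (tTA) driven by CaMKIIα, so that tau is made in forebrain neurons. WT mice carry neither transgene and have the strain label 129/FVB F1. Each library came from cells captured with CD11b MicroBeads from pooled forebrains, and CD11b is shared by other myeloid cells. No group carried tTA alone, so an effect of tau cannot be told apart from one of the transactivator or of either insertion. Of 32 libraries 28 were kept, which leaves 4 for either genotype in the 2-month and 6-month groups and 3 in the others. The authors had dropped replicate 3 of the 4-month groups and replicate 4 of the 8-month groups after quality control. The comparisons ask how the pathway differs between genotypes at each age and whether that difference changes with age.

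TGF-beta1 is secreted bound to its own propeptide in a latent form, which Nrros holds on the surface of microglia until integrins release it. The active ligand binds the type II receptor, encoded by Tgfbr2, which recruits and phosphorylates the type I receptor encoded by Tgfbr1. The type I receptor phosphorylates Smad2 and Smad3, which enter the nucleus with Smad4, while Smad7 blocks the receptor and Ski and Skil hold Smad complexes silent. In microglia the pathway is known for maintaining the homeostatic gene program.

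The deposited values are log2 gene signals with a median of 5.63 in every library, and no read totals come with them. The lowest value of a library was 1.23 to 1.92, and the lowest member value in a kept library was 6.32, so all members lay far above the lowest signals. All 8 microglia markers, which include Itgam, Aif1, Cx3cr1, Csf1r, P2ry12, Tmem119 and Fcrls, had a row. Their summed signal, on the log2 scale, was 14.68 to 15.16 in WT and 14.38 to 14.90 in rTg4510 libraries, and from 4 months on the rTg4510 libraries lay below those of WT without overlap. Neutrophil markers moved with genotype as well. Their summed log2 signal at 6 months was 9.06 to 10.33 in WT and 7.45 to 8.16 in rTg4510, and 7 of the 8 were lower DEGs there, as 6 were at 8 months. Of the neuron markers 3 of 8 had a row, and Rbfox3, Tubb3, Slc17a7, Gad1 and Nefl were not analysed here. At 6 months 1 endothelial marker of 8 was a higher and 4 were lower DEGs, and of 6 monocyte markers 2 were higher and 3 lower. The other lists held 1 higher and 2 lower DEGs of 7 astrocyte, 1 and 0 of 7 pericyte and fibroblast, 0 and 1 of 7 border macrophage, 0 and 1 of 7 T and B cell, 0 and 1 of 3 neuron, and 0 and 0 of 8 oligodendrocyte markers. The mouse tau gene Mapt had group means of 4.36 to 4.71 in rTg4510 and 4.73 to 5.72 in WT, so its row gave no check of the genotype labels. WT 8 months replicate 1 stood apart, with summed log2 signals of 11.63 for astrocyte and 10.85 for oligodendrocyte markers, where the other WT libraries of that age read 10.39 and 10.60 and 9.01 and 8.21. In these bulk libraries fewer cells of a type and less RNA per cell cannot be told apart.

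A DEG is a gene with an FDR (Benjamini-Hochberg, over all 18588 genes, from the linear model) under 0.05 and a change above 1.5 fold. Of the 10 members 0 were DEGs at each of the 4 ages. The moderated limma fit also called 0, and 1, 6, 5 and 4 members had an unadjusted p under 0.05 at 2, 4, 6 and 8 months. Such a p was held by 16.5%, 33.6%, 43.0% and 35.4% of all genes. Over all genes, the share of higher DEGs was 1.58%, 9.47%, 11.3% and 10.5% in order of age, and that of lower DEGs was 0.403%, 4.33%, 8.54% and 5.37%. The 95% interval of the change stayed within 1.5 fold in either direction for 10, 8, 9 and 9 of the 10 members at the 4 ages.

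Below that size, differences were present from 4 months on. An FDR under 0.05 was reached by 0 members at 2 months, by 5 at 4 months (Tgfbr2 higher, Smad2, Smad3, Smad4 and Skil lower), by 4 at 6 months (Tgfbr2 higher, Tgfbr1, Smad3 and Smad4 lower) and by 3 at 8 months (Tgfbr2 higher, Tgfbr1 and Smad4 lower). With same-numbered libraries as pairs Smad4 missed the FDR at 4, 6 and 8 months (0.0666, 0.0962 and 0.0812) and Skil passed at 6 months (0.034). Without WT 8 months replicate 1 Smad4 missed it at 6 and 8 months (0.0506 and 0.0605), while at 8 months Tgfbr1 differed by -0.42 (FDR 0.000221) and Tgfbr2 by 0.43 (FDR 0.00051). The background of this rule was 4.76% of all genes higher and 1.27% lower at 2 months, 14.1% and 9.10% at 4 months, 19.1% and 14.9% at 6 months, and 16.0% and 9.78% at 8 months. The libraries of both genotypes did not overlap for 0, 6, 5 and 4 members at the 4 ages, beside 11.0%, 36.6%, 32.8% and 36.7% of all genes. The median size of the members' log2 fold change was 0.05 at 2 months, 0.21 at 4 months, 0.11 at 6 months and 0.14 at 8 months, against 0.16, 0.29, 0.32 and 0.30 over all genes.

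**Figure D1:**
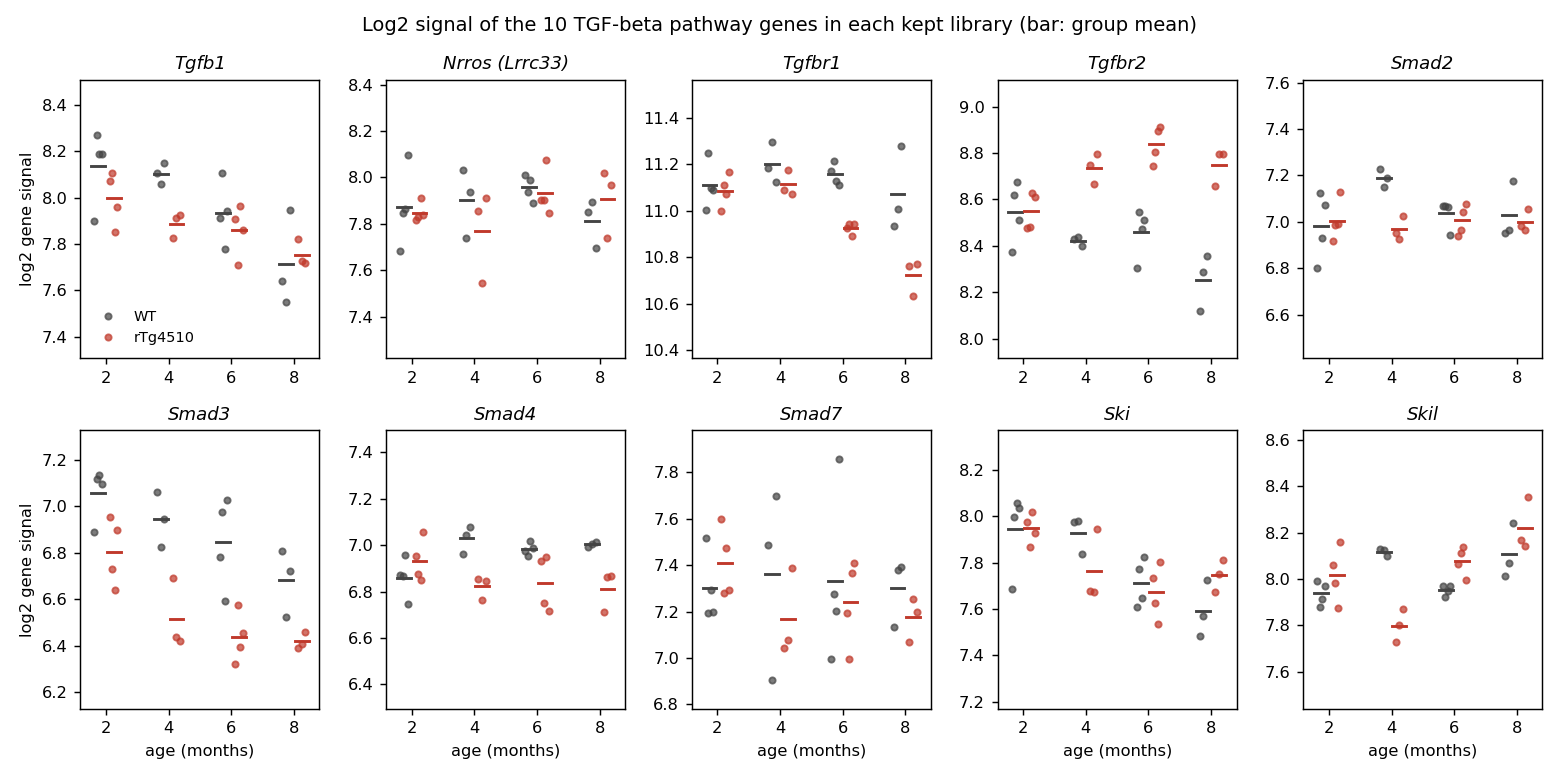
Log2 gene signal of each member (vertical axis, 1.2 log2 units in every panel) against age in months, with 1 point per kept library and a bar at the group mean, WT in grey and rTg4510 in red. Tgfbr2 stands higher in rTg4510 from 4 months on, Tgfbr1 lower at 6 and 8 months, and Smad3 lower at 4, 6 and 8 months.

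**Figure D2:**
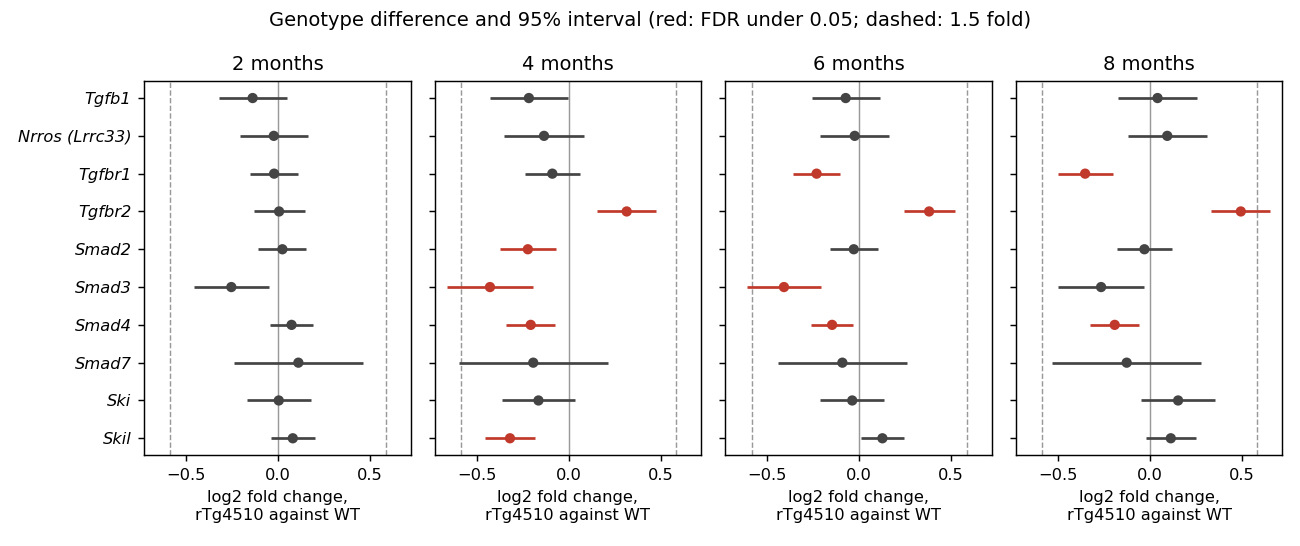
Log2 fold change of rTg4510 against WT (horizontal axis) for each member at each age, with its 95% interval from the linear model. Red marks an FDR under 0.05 and dashed lines mark 1.5 fold, which no point passes.

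Tgfbr2, the ligand-binding receptor, and Tgfbr1, the kinase that passes the signal on, differed from WT in opposite directions at 6 and 8 months. The 250 bases before the RefSeq start of these genes and of Smad3 (GRCm38.p6, gene strand) are shown because these 3 members passed the FDR at 2 or more ages and have a window. Capitals mark the GC box GGGCGG in Tgfbr1 (chr4:47352972-47353221, + strand) and Smad3 (chr9:63757995-63758244, − strand), and the CAGAC core of the CAGA box, a Smad-binding motif, in Tgfbr2 (chr9:116175364-116175613, − strand). Both strands were searched.
Tgfbr1: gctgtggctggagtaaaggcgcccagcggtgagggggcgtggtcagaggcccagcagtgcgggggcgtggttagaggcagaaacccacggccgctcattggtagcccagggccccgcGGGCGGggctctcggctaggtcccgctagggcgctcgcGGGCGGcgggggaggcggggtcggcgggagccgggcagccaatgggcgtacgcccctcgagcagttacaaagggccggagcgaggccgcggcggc
Tgfbr2: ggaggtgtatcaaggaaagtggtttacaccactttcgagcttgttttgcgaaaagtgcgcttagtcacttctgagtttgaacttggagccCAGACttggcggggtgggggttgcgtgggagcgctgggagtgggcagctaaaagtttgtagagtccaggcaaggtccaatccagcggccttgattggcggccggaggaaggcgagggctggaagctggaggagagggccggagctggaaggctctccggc
Smad3: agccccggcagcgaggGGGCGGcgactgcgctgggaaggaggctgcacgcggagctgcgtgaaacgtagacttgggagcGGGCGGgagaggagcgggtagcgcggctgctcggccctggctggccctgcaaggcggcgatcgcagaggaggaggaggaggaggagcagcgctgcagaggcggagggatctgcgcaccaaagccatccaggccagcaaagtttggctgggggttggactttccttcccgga
The printed windows of Tgfbr1 and Smad3 held 2 GC boxes each and no CAGAC, and that of Tgfbr2 held 1 CAGAC and no GC box. A second RefSeq window of Tgfbr1, at a start inside the gene (chr4:47385966-47386215), held 1 CAGAC and no GC box, with a GC content of 52.8%. The GC content was 74.8% in the printed window of Tgfbr1, 69.2% in that of Smad3 and 58.4% in that of Tgfbr2. The median was 52.4% over 32851 promoter windows of the same length. A CAGAC was present in 42.2% and a GC box in 32.7% of those windows, so these matches are common and are given as a description. The Smad palindrome GTCTAGAC, in 0.167% of all windows, and the ETS-type motif GAGGAAGT, in 2.44%, were in none of these windows. RefSeq windows were found for 6 members. Those of Tgfb1 and Ski held 5 GC boxes each with GC contents of 75.2% and 87.6%, and that of Nrros held 1 CAGA core, with 58.4% of its bases G or C.

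At 2 months Tgfbr2 read 8.37, 8.62, 8.67 and 8.51 in the WT libraries and 8.48, 8.48, 8.63 and 8.61 in the rTg4510 libraries, on the log2 signal scale. The genotypes overlapped. At 4 months it read 8.43, 8.44 and 8.40 in WT and 8.75, 8.67 and 8.79 in rTg4510. At 6 months the values were 8.30, 8.55, 8.47 and 8.51 in WT and 8.74, 8.80, 8.89 and 8.91 in rTg4510. For 8 months they were 8.12, 8.29 and 8.36 against 8.66, 8.79 and 8.80. From 4 months on every rTg4510 library lay above every WT library of its age. The log2 fold change was 0.01 (SE 0.07, FDR 0.986) at 2 months, 0.32 (SE 0.08, FDR 0.00424) at 4 months, 0.38 (SE 0.07, FDR 0.000118) at 6 months and 0.49 (SE 0.08, FDR 3.77e-05) at 8 months.

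The genotype difference of Tgfbr2 was larger at 8 than at 2 months by 0.49 on the log2 scale (95% interval 0.28 to 0.70, FDR 0.00323). Over the same ages Tgfbr2 fell in WT by 0.29 (FDR 0.0267) and was 0.20 higher in rTg4510 (FDR 0.0526). The WT decline lost its FDR in 4 of the 28 fits that left out 1 library. Under quantile normalization the rTg4510 change at 4 months was 0.18 (FDR 0.0665), while those at 6 and 8 months were 0.22 (FDR 0.0052) and 0.35 (FDR 0.000367).

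Tgfbr1 read 11.17, 11.21, 11.13 and 11.11 in WT and 10.93, 10.94, 10.89 and 10.94 in rTg4510 at 6 months. At 8 months it read 10.93, 11.01 and 11.28 in WT and 10.76, 10.63 and 10.77 in rTg4510. All rTg4510 libraries were below all WT libraries at these ages, whereas at 2 and 4 months the genotypes overlapped and all values lay between 11.00 and 11.30. The log2 fold change was -0.02 (SE 0.06, FDR 0.926) at 2 months, -0.09 (SE 0.07, FDR 0.416) at 4 months, -0.23 (SE 0.06, FDR 0.00586) at 6 months and -0.35 (SE 0.07, FDR 0.000718) at 8 months. Quantile normalization of the libraries gave -0.49, -0.68 and -0.78 from 4 months on (FDR 7.46e-05, 9.12e-08 and 1.60e-07), which makes Tgfbr1 a DEG at the last 2 ages. The cause of that shift was not tested. With only the groups of 8 months in the fit the FDR there was 0.145. With all 32 libraries in the fit the change of Tgfbr1 at 6 months was -0.23 and missed the FDR (0.0862).

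Tgfbr1 was also compared over age within each genotype. Between 2 and 8 months it fell by 0.37 in rTg4510 (SE 0.07, FDR 0.000366) and differed by -0.04 in WT (95% interval -0.18 to 0.10). The difference between these changes was -0.33 (95% interval -0.53 to -0.13, FDR 0.0291). It missed the FDR in 6 of the 28 fits that left out 1 library (highest FDR 0.099, without rTg4510 8 months replicate 2). Summed microglia markers were lower in the same libraries, at 14.38 to 14.49 in rTg4510 and 14.68 to 14.94 in WT at 8 months, and their part in the result was not tested.

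The signal of Tgfbr2 minus that of Tgfbr1 within a library describes both receptors at once, and was chosen after their values had been seen, so no test is given. In WT it averaged -2.56 ± 0.10, -2.78 ± 0.07, -2.70 ± 0.12 and -2.82 ± 0.10 in order of age (SD, n = 4, 3, 4 and 3). In rTg4510 it averaged -2.54 ± 0.08, -2.38 ± 0.12, -2.09 ± 0.09 and -1.97 ± 0.13. The genotypes overlapped at 2 months and did not overlap at the later ages. Since the difference of 2 signals also reflects how exons of each gene were measured, its size is read between libraries and not as a ratio of receptor molecules.

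**Figure D3:**
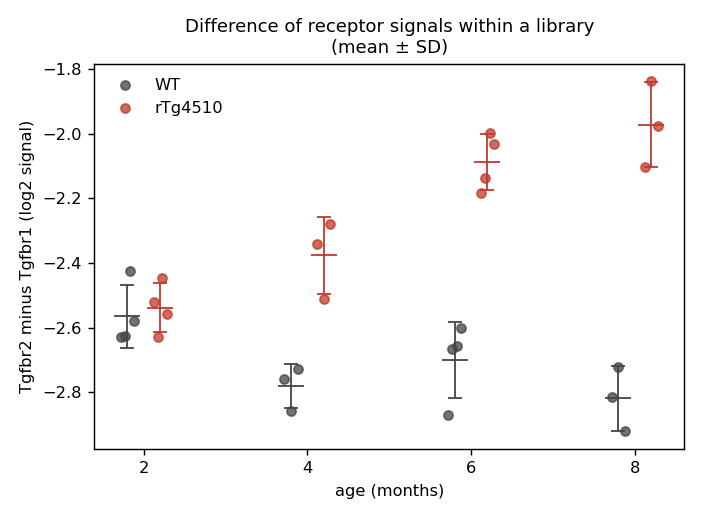
Tgfbr2 minus Tgfbr1 log2 signal in each kept library (vertical axis) against age in months, with the group mean and SD, WT in grey and rTg4510 in red. The rTg4510 libraries range from -2.63 to -2.45 at 2 months and from -2.10 to -1.84 at 8 months.

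Smad3, a receptor-activated transducer that binds DNA directly, had the largest decrease of the members on the deposited scale, while under quantile normalization Tgfbr1 fell further. At 4 months it read 7.06, 6.82 and 6.94 in WT and 6.69, 6.44 and 6.42 in rTg4510. At 6 months it read 6.78, 6.98, 6.59 and 7.03 in WT and 6.32, 6.57, 6.39 and 6.46 in rTg4510. No rTg4510 library reached a WT library at these ages, although at 6 months the gap between the nearest values was small. The log2 fold change was -0.25 (SE 0.10, FDR 0.161) at 2 months, -0.43 (SE 0.11, FDR 0.00759) at 4 months, -0.41 (SE 0.10, FDR 0.00242) at 6 months and -0.26 (SE 0.11, FDR 0.0934) at 8 months. At 8 months the libraries read 6.81, 6.52 and 6.72 in WT and 6.39, 6.41 and 6.46 in rTg4510, again without overlap. The FDR at 4 months was 0.0994 with only the groups of that age in the fit, and that at 8 months was 0.047 without WT 8 months replicate 2.

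Smad3 also declined with age in both genotypes. Between 2 and 8 months it fell by 0.38 in WT (SE 0.11, FDR 0.0474) and by 0.39 in rTg4510 (SE 0.11, FDR 0.011). The genotype difference changed by -0.01 over the same ages (95% interval -0.32 to 0.30, FDR 0.981), an interval that leaves room for a shift in either direction. The WT decline lost its FDR in 18 of the 28 fits that left out 1 library, and the rTg4510 decline in 0.

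Smad4, the common partner of the activated Smads, was lower in rTg4510 by small amounts. Its log2 fold change was 0.07 (SE 0.06, FDR 0.594) at 2 months, -0.21 (SE 0.06, FDR 0.0223) at 4 months, -0.15 (SE 0.06, FDR 0.0442) at 6 months and -0.19 (SE 0.06, FDR 0.0315) at 8 months. WT libraries ranged from 6.96 to 7.08 at 4 months, from 6.95 to 7.02 at 6 months and from 6.99 to 7.01 at 8 months. The rTg4510 libraries ranged from 6.77 to 6.86, from 6.72 to 6.95 and from 6.71 to 6.87. The groups did not overlap, but at 6 months the nearest WT and rTg4510 values both round to 6.95. Leaving out 1 library removed the call in 3, 14 and 4 of 28 fits at 4, 6 and 8 months. The moderated fit missed the FDR at 6 and 8 months (0.0759 and 0.0586). With only the groups of 1 age it was 0.068, 0.129 and 0.102 at 4, 6 and 8 months. With all 32 libraries it was 0.0692, 0.372 and 0.371, so the calls of Smad4 depend on the fit.

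Smad2, the other receptor-activated transducer, was lower in rTg4510 at 4 months, where WT read 7.23, 7.15 and 7.19 and rTg4510 read 6.95, 6.93 and 7.02. That difference was -0.22 (SE 0.07, FDR 0.0299), and 4 of the 28 fits without 1 library missed the FDR. With all 32 libraries it was -0.27 and missed the FDR too (0.137). At 2, 6 and 8 months the change of Smad2 lay between -0.03 and 0.02 on the log2 scale with 95% intervals between -0.18 and 0.15. Smad7, the inhibitory Smad, had changes of 0.11, -0.19, -0.09 and -0.13 at the 4 ages and the widest SE of the members, 0.17 to 0.19. Its WT libraries spread from 6.90 to 7.70 at 4 months and reached 7.86 at 6 months, and the lowest FDR of Smad7 was 0.53, so these data bear little on it.

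Skil, a corepressor that is itself a known TGF-beta target, was the member whose genotype difference moved most between neighbouring ages. At 2 months it read 7.99, 7.88, 7.91 and 7.97 in WT and 8.06, 7.98, 7.87 and 8.16 in rTg4510. At 4 months WT read 8.13, 8.13 and 8.10 and rTg4510 read 7.73, 7.80 and 7.87. Every rTg4510 library of 4 months lay below every WT library of that age. At 6 months WT read 7.97, 7.92, 7.95 and 7.97 and rTg4510 read 8.07, 8.11, 8.14 and 8.00, so the order of the groups had turned. The log2 fold change was 0.08 (SE 0.06, FDR 0.563), -0.32 (SE 0.07, FDR 0.000967), 0.13 (SE 0.06, FDR 0.0964) and 0.11 (SE 0.07, FDR 0.23) at the 4 ages.

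The change in the genotype difference of Skil was -0.40 from 2 to 4 months (95% interval -0.58 to -0.22, FDR 0.00666) and 0.44 from 4 to 6 months (95% interval 0.26 to 0.63, FDR 0.0452). The former passed in all 28 fits that left out 1 library and the latter in 10. Both rest on the 3 kept libraries per genotype at 4 months. With the excluded libraries included the change at 4 months was -0.11 (FDR 0.741). At 6 months Skil passed the FDR, at 0.034, when same-numbered libraries were taken as pairs. Within rTg4510 Skil fell by 0.22 from 2 to 4 months (FDR 0.0187) and was higher by 0.20 at 8 than at 2 months (FDR 0.0209), and leaving out 1 library removed these calls in 4 and 3 of 28 fits.

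Ski, the other corepressor (chr4:155154075-155222535), did not pass at any age. Its changes were 0.00, -0.16, -0.04 and 0.15 on the log2 scale, each with an SE of 0.08 to 0.10, and its 95% intervals ran from -0.36 to 0.04 at 4 months and from -0.05 to 0.35 at 8 months.

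Among the ligand genes Tgfb1 (chr7:25687002-25705077) did not pass either. It read 8.10, 8.06 and 8.15 in WT and 7.82, 7.91 and 7.93 in rTg4510 at 4 months. These groups did not overlap, and the change of -0.22 (SE 0.10) had an FDR of 0.142 and, under quantile normalization, -0.29 with an FDR of 0.0347. At 2, 6 and 8 months the changes were -0.14, -0.07 and 0.04 with overlapping groups. Nrros (chr16:32142785-32165594), the anchor of latent TGF-beta1 on microglia, had changes of -0.02, -0.13, -0.02 and 0.09, with intervals that stayed between -0.35 and 0.31.

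Over age 4 members passed the FDR between 2 and 8 months in WT, all of them lower at 8 months, beside 0.818% of all genes higher and 3.39% lower. Tgfb1 fell by 0.42 (SE 0.10, FDR 0.0165), Smad3 by 0.38, Ski by 0.35 (SE 0.09, FDR 0.0309) and Tgfbr2 by 0.29. Without WT 8 months replicate 1, the library with high astrocyte and oligodendrocyte signal, 0 members passed, and the part of that signal in the result was not tested. The count was also 0 without WT 8 months replicate 2 or without WT 2 months replicate 2, so these calls hang on several single libraries. Between 2 and 4 months 0 members passed in WT, where 3 had an unadjusted p under 0.05 and the moderated fit passed 0, beside 0.0699% of all genes higher and 0.0161% lower. Such a p was held by 10.2% of all genes. In rTg4510 Skil passed between 2 and 4 months, beside 9.73% higher and 5.48% lower, and Skil, Smad3 and Tgfbr1 between 2 and 8 months, beside 10.6% and 11.0%. In rTg4510 the 8-month change of Tgfb1 was -0.24 (FDR 0.0771) and that of Ski -0.20 (FDR 0.123). The age contrasts share their 2-month libraries with each other and with the genotype contrasts.

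The tests of a changing genotype difference passed the FDR for Skil and Smad4 between 2 and 4 months, for Skil between 4 and 6 months, for 0 members between 6 and 8 months, and for Tgfbr1 and Tgfbr2 between 2 and 8 months. The background of these tests in either direction was 7.33%, 0.172%, 0% and 9.76% of all genes. Between 6 and 8 months 0 members had an unadjusted p under 0.05, beside 4.52% of all genes, and the moderated fit passed 0 too. The value for Smad4 between 2 and 4 months was -0.28 (95% interval -0.46 to -0.10, FDR 0.0482), which missed the FDR in 20 of 28 fits without 1 library and had an FDR of 0.119 with the replicate block.

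Across the 28 libraries the members did not follow each other closely. The 45 pairs of members had a median Pearson r of 0.12, with values from -0.56 to 0.70, and after removal of the group means the median was 0.14 with values from -0.37 to 0.67. The libraries share genotype and age, so these r values describe the table and carry no test. The genes most like Tgfbr2 were Ifnar2 (r = 0.947) and Abhd12 (0.910), and those most like Tgfbr1 were Itgav (0.911), Rnase4 (0.894) and Gspt1 (0.892). For Smad3 they were Prag1 (0.902), Lcp2 (0.897) and Soga1 (0.895), for Ski Psmc2 (0.879), Zmiz1 (0.803) and Slain2 (0.788), and for Smad4 Rnf214 (0.841), Cask (0.794) and Srsf7 (0.762). The nearest genes to Tgfb1 were Prrc2a (0.835), Prr12 (0.779) and Upf3a (0.776), those to Skil were Svil (0.742), Dpep2 (0.717) and Bach1 (0.694), and those to Nrros were Il17ra (0.674), Zfp236 (0.667) and Slc15a4 (0.643). For Smad2 the nearest were the gene with Entrez number 101056258 (0.736), Vps72 (0.726) and Ppp1r8 (0.722), and for Smad7 the gene with Entrez number 666295 (0.729), Mir24-2 (0.724) and Mir27a (0.722).

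Around the members, 9 lists of pathway genes with 106 distinct genes in the table held 2 higher and 1 lower DEG at 2 months, 7 and 9 at 4 months, 11 and 14 at 6 months, and 12 and 10 at 8 months. Over all genes the shares were 1.58% and 0.403%, 9.47% and 4.33%, 11.3% and 8.54%, and 10.5% and 5.37%. The median size of their log2 fold change was 0.13, 0.32, 0.34 and 0.31 at the 4 ages, close to that of all genes. The list of Smads and their anchors held 0 DEGs of 10 at every age and 0, 4, 3 and 1 lower genes at an FDR under 0.05. The branch through the kinase TAK1 (Map3k7, its Tab partners, Traf6 and the p38 and JNK kinases) held 0 DEGs of 7 at every age and 0, 1, 3 and 1 lower genes at that FDR. The moderated fit also called 0 in both lists, and at an unadjusted p under 0.05 they held 2, 5, 4 and 4 genes and 0, 5, 3 and 3 genes. Over all genes 1.27%, 9.10%, 14.9% and 9.78% were lower at an FDR under 0.05. An unadjusted p under 0.05 was held by 16.5%, 33.6%, 43.0% and 35.4% of all genes.

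Of 14 genes for ligands and the handling of latent TGF-beta, 2 were higher DEGs at 4 months, beside 9.47% of all genes. At 6 and again at 8 months 3 were higher and 1 lower, beside 11.3% and 8.54% of all genes at 6 months and 10.5% and 5.37% at 8 months, so in a list of this size the counts lay near the background. Ltbp2 was not analysed here. Itgb8, the beta chain of an integrin that frees TGF-beta from its latent complex, ranged from 2.34 to 3.64 in WT and from 5.14 to 5.54 in rTg4510 at 6 months, which was 2.47 higher on the log2 scale (SE 0.33, FDR 4.31e-06), with 3 of the 4 WT libraries within 3 times the lowest signal of their library. At 4 months all 3 WT libraries of Itgb8 lay that low, so the increase there is given as at least 2.13 fold over that level. Tgfb2, another ligand, ranged from 2.99 to 3.91 in WT and from 5.51 to 5.83 in rTg4510 at 6 months, with log2 fold changes of 1.43, 2.28 and 1.76 at 4, 6 and 8 months. For Tgfb2, 1 WT library of 6 months lay within 3 times the lowest signal. Thbs1, thrombospondin, which can activate latent TGF-beta, rose by 0.71 and 0.78 at 6 and 8 months. Ltbp4, which tethers latent complexes to matrix, fell by 1.18 and 1.19 at these ages, with 3 of the 4 rTg4510 libraries of 6 months within 3 times the lowest signal.

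Of 6 receptor genes 0 were higher and 2 lower DEGs at 4 months, and 1 was higher and 2 lower at 6 and at 8 months. Over all genes 9.47%, 11.3% and 10.5% were higher DEGs at 4, 6 and 8 months, and 4.33%, 8.54% and 5.37% lower. Acvrl1, a type I receptor, rose by 0.68 at 6 and at 8 months. Eng (endoglin) and Tgfbr3 (betaglycan), coreceptors that present ligand, fell at 4, 6 and 8 months. Eng ranged from 7.13 to 7.41 in WT and from 6.25 to 6.48 in rTg4510 at 6 months (log2 fold change -0.90, SE 0.08, FDR 1.87e-08), and Tgfbr3 changed by -1.07, -1.22 and -0.97 at the 3 ages. For Tgfbr3, 1 rTg4510 library of 4 months and 2 of 6 months lay within 3 times the lowest signal of their library. Endothelial cells express these coreceptors too. The median change over the 8 endothelial markers was -0.15, -0.76, -0.88 and -0.73 at the 4 ages, and their summed signal at 6 months was 7.22 to 8.02 in WT and 7.15 to 7.57 in rTg4510, overlapping. Their part in these results was not tested.

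Of the 7 nuclear corepressors Tgif1, which represses Smad-driven transcription, was a DEG at all 4 ages, with log2 fold changes of 0.62 (SE 0.13, FDR 0.00348), 0.82, 1.12 and 1.17 (SE 0.15, FDR 2.57e-06). It ranged from 7.10 to 7.61 in WT and from 8.33 to 8.71 in rTg4510 at 6 months. Of 15 genes for ubiquitin, phosphatase and membrane regulators, 1 was higher and 1 lower at 4 and at 8 months, and 2 were higher and 2 lower at 6 months. Over all genes 9.47%, 11.3% and 10.5% were higher DEGs at 4, 6 and 8 months, and 4.33%, 8.54% and 5.37% lower. Bambi, a decoy receptor without a kinase domain, rose by 1.82, 2.11 and 1.88 at 4, 6 and 8 months, and Fkbp1a, which binds the type I receptor, by 0.68 at 6 months. For Bambi, 1 WT library of 6 months lay within 3 times the lowest signal. Pmepa1, an inhibitor that is also induced by TGF-beta, fell by 0.61, 0.82 and 0.65 at those 3 ages, and its relative Ldlrad4 fell by 0.65 at 6 months. Of 14 activin and BMP genes 1 was a higher and 1 a lower DEG at 4 months. At 6 months 0 were higher and 3 lower, and at 8 months 1 was higher and 0 lower. The largest changes were those of Gdf15, which rose by 1.23 and 1.27 at 4 and 8 months, and of Bmp6, Bmp2 and Acvr2b. Bmp6 and Bmp2 fell by 1.25 and 1.03 at 6 months, and the receptor Acvr2b fell by 0.66 at 4 months. Bmp6 stayed within 3 times the lowest signal in 3 of the 4 rTg4510 libraries of 6 months.

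Genes known to respond to TGF-beta did not move one way. Of 19 such genes with a row, which include Smad7, Skil, Tgif1 and Pmepa1, 2 were higher DEGs at 2 months, 3 higher and 1 lower at 4 months, 5 and 2 at 6 months, and 6 and 1 at 8 months. The shares over all genes were 1.58% higher and 0.403% lower, 9.47% and 4.33%, 11.3% and 8.54%, and 10.5% and 5.37%. Bhlhe40, a transcriptional repressor, rose by 1.73, 1.86 and 1.57 from 4 months on. Id2 rose by 1.30 and 1.39 at 6 and 8 months, while its relative Id3 fell by 1.39 at 6 months, where 1 rTg4510 library lay within 3 times the lowest signal.

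Many microglia genes that depend on TGF-beta were lower in rTg4510. Of 19 such genes, among them Tgfbr1, 1, 5, 5 and 6 were lower DEGs at the 4 ages and 0 were higher. Over all genes 0.403%, 4.33%, 8.54% and 5.37% were lower DEGs, and 1.58%, 9.47%, 11.3% and 10.5% higher. At an FDR under 0.05 alone 7, 11, 15 and 16 were lower and 0, 1, 1 and 0 higher. The shares of all genes at that FDR were 1.27%, 9.10%, 14.9% and 9.78% lower and 4.76%, 14.1%, 19.1% and 16.0% higher. The median log2 fold change was -0.15, -0.32, -0.39 and -0.49, against 0.01, -0.04, -0.04 and -0.01 over all genes. Slc2a5, a fructose transporter, ranged from 6.53 to 6.87 in WT and from 4.40 to 4.82 in rTg4510 at 6 months, and changed by -1.42, -2.11 and -2.53 at 4, 6 and 8 months. The transcription factor Sall1, which defines microglia identity, fell by 0.77, 0.86 and 0.81, the receptors P2ry13 and Gpr34 by 0.83, 1.08 and 0.91 and by 0.63, 0.70 and 0.87, and Tmem119, a microglia surface protein, by 0.74, 0.78 and 0.72. P2ry12, Tmem119, Fcrls and Cx3cr1 are among the genes that stand both in this list and among the microglia markers, whose summed signal was lower in rTg4510 from 4 months on, and the part of that difference in the count was not tested.

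**Figure D4:**
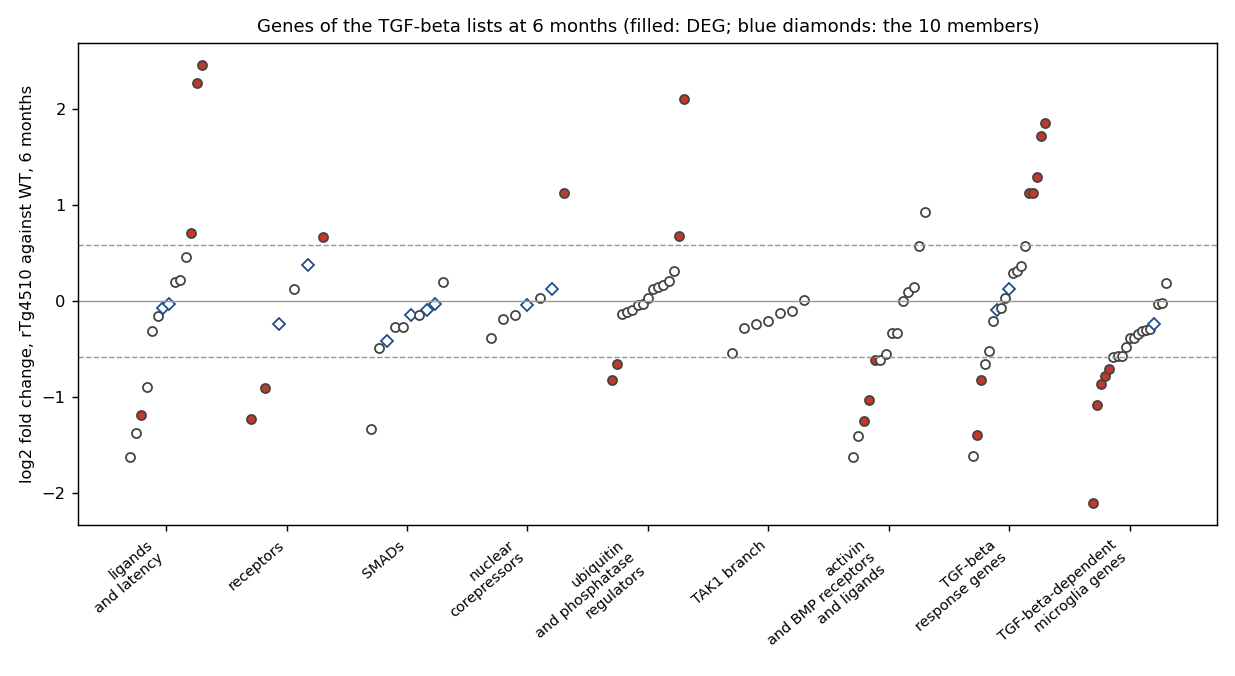
Log2 fold change of rTg4510 against WT at 6 months (vertical axis) for each gene of the 9 lists (horizontal axis), filled where the gene is a DEG, with dashed lines at 1.5 fold and blue diamonds for the 10 members. The members lie between -0.41 and 0.38, inside the dashed lines, while the microglia list lies almost wholly below 0.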

How the data were processed

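The deposited log2 gene signals were made by the authors from exon reads: low-count exons were dropped, a robust linear fit over exons gave each gene its signal, and the signals were scaled to a common median. Per the labels the build is GRCm38, and the aligner and annotation are not given in the sources used here, nor is strand. Reads of lncRNAs that overlap Tgfbr1, Tgfbr2, Smad3 and Smad7 therefore cannot be told apart from theirs. Read totals of single libraries are not given, only an approximate number per sample. The number of libraries sets the precision, and p-values measure the spread between pooled libraries.

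Genotype, age and replicate came from the labels. A linear model with 8 group means and unmoderated variances was fitted to 28 libraries and 18588 genes by limma (version 3.58.1, R version 4.3.3) and tested on simulated data, with Benjamini-Hochberg FDR values for each contrast. No gene was filtered out. Symbols came from RefSeq (GRCm38.p6, 95.9% of genes matched), as did promoter windows, and 0 columns were left unused. Python 3.11.15 (pandas 2.3.3, numpy 2.4.6, matplotlib 3.10.9) handled sequences and figures. Skil is not among the promoter windows. Other members are reported without sequence.

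Libraries with the same number in both genotypes were checked for shared deviations from their groups. At 6 months r across genes was 0.131 to 0.153, against -0.127 to 0.091 for libraries with different numbers. At 8 months it was 0.150 to 0.291 against -0.259 to -0.028. These ranges did not overlap, so these ages were read as paired on the values alone. The ranges overlapped at 2 months (0.065 to 0.167 against -0.194 to 0.082) and 4 months (-0.100 to 0.124 against -0.071 to 0.154), which were not read so. SE, FDR and intervals come from the fit without pairs unless pairs are named. The block of pairs was fitted to all ages at once.

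Named were all members, in each list up to 4 DEGs with the largest change at any age and those called at 4, 6 and 8 months, and the 3 genes with the highest r to each member. Some genes that this rule names are not reported here. The members and lists were chosen with earlier results of these data known. Alternatives were moderated variances, quantile normalization, a filter at the 25th percentile of signal, a pseudocount of 8, all 32 libraries, no fold limit, each library left out, the groups of 1 age alone, and replicate blocks.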

Additional observations from a re-analysis of the deposited data

Results flagged for a closer look

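The genotype difference of 4 members changed between ages by a test of that change. It was -0.399 for Skil from 2 to 4 months (FDR 0.00666) and 0.445 for Skil from 4 to 6 months (FDR 0.0452). For Smad4 it was -0.279 from 2 to 4 months (FDR 0.0482). Between 2 and 8 months it was -0.329 for Tgfbr1 (FDR 0.0291) and 0.489 for Tgfbr2 (FDR 0.00323). The value for Tgfbr1 missed the FDR without rTg4510 2 months replicate 2 (FDR 0.0542) or 4 (FDR 0.0629), rTg4510 8 months replicate 2 (FDR 0.099), WT 2 months replicate 1 (FDR 0.0624) or 4 (FDR 0.0509), or WT 8 months replicate 3 (FDR 0.0933).

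In 3 groups of 4 libraries 1 library stood far from the others by Dixon's test. WT 2 months replicate 1 read 7.687 for Ski and 6.888 for Smad3, below the other 3 libraries, and WT 6 months replicate 4 read 6.943 for Smad2. Of 40 groups tested, 3 were thus marked, and chance marks about 1 in 20. Without WT 2 months replicate 1 the genotype change at 2 months was -0.08 for Ski (FDR 0.672) and -0.31 for Smad3 (FDR 0.0848).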

How the results depend on the processing

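Over the alternatives 0 of 10 members were DEGs at each age, except under quantile normalization, where Tgfbr1 was a DEG at 6 and 8 months and in the change of genotype difference between 2 and 8 months (1 member each), and except without a fold limit. Quantile normalization gave 3 lower pathway DEGs at 2 months, and it turned the sign at 2 months of Tgfbr2 (-0.053), Smad2 (-0.0050) and Ski (-0.021), and at 8 months of Tgfb1 (-0.037). The shift of the median over all genes stayed under 0.05 in size there. Counts of members at an FDR under 0.05 for the change of genotype difference were 1 between 2 and 4 months under moderated variances, quantile normalization and all 32 libraries, and 0 between 4 and 6 months under these and under the signal filter. With all 32 libraries the count was 2 at 4 and 2 at 6 months, 1 for the change between 2 and 8 months, 0 for WT and 1 for rTg4510 between 2 and 8 months, 1 pathway DEG was higher at 2 months, and signs turned for Tgfbr1 at 4 months (0.065) and Smad2 at 8 months (0.00025). Without a fold limit 5, 4 and 3 members passed at 4, 6 and 8 months, 2, 1 and 2 in the changes of genotype difference (2 to 4, 4 to 6 and 2 to 8 months), 4 in WT between 2 and 8 months, 1 and 3 in rTg4510 between 2 and 4 and between 2 and 8 months, and the pathway lists held 8 lower genes at 2 months, 12 higher and 26 lower at 4 months, 17 and 35 at 6 months and 28 lower at 8 months. With the groups of 1 age alone 3 and 1 members had an FDR under 0.05 at 4 and 8 months, and the lists held 0 higher DEGs at 2 months, 4 higher at 4 months and 6 lower at 8 months. Causes were not tested.

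The block of same-numbered libraries removed Smad4 at 4, 6 and 8 months and added Skil at 6 months, and changed no other call of a member between genotypes. With replicate number as a block across ages 2 members passed in rTg4510 between 2 and 4 months.

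Leaving out each library in turn gave 3 to 5 members at an FDR under 0.05 at 4 months (3 without rTg4510 replicate 2 or WT replicate 4), 1 to 2 for the change of genotype difference between 2 and 4 months, 0 to 1 between 4 and 6 months and 1 to 3 between 2 and 8 months. In WT between 2 and 8 months the range was 0 to 4 (0 without 2 months replicate 2 or 8 months replicate 1 or 2, 1 and 2 without 2 months replicate 3 and 4). In rTg4510 it was 0 to 2 between 2 and 4 months (0 without 2 months replicate 1 or 4 or 4 months replicate 2, 2 without 2 months replicate 3 or WT 6 months replicate 3) and 2 to 5 between 2 and 8 months (5 without WT 2 months replicate 1 or WT 8 months replicate 3). Pathway DEGs at 2 months were 0 to 4 higher (0 without rTg4510 replicate 1, 4 without WT replicate 1, 1 without rTg4510 replicate 4 or WT replicate 2, 3 or 4) and 0 to 2 lower (0 without rTg4510 replicate 1, 2 without rTg4510 replicate 3 or WT replicate 1). Signs of members that passed no test turned in these ranges at 2 months: Nrros -0.087 to 0.051, Tgfbr1 -0.057 to 0.024, Tgfbr2 -0.052 to 0.048, Smad2 -0.038 to 0.071 and Ski -0.083 to 0.041. At 6 months they were Nrros -0.072 to 0.0033, Smad7 -0.204 to 0.084 and Ski -0.082 to 0.0083, and at 8 months Tgfb1 -0.040 to 0.159 and Smad2 -0.069 to 0.042. No read depth is known, so the limits here are those of 3 or 4 libraries per group.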

Other observations

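The 4 libraries that the authors excluded after quality control entered no fit except the alternative with all 32 libraries. Replicate 3 of each genotype at 4 months lay outside the range of the 28 kept libraries for 6 members, and replicate 4 of each genotype at 8 months for 4 members. In rTg4510 4 months replicate 3 Skil read 9.17, Ski 9.14, Smad2 6.26 and Smad7 5.96.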
